A study of Homo sapiens with 6 samples.

Results

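The genes described here are 40 interferon-stimulated genes, chosen by symbol with earlier results of these data known. Of these, 39 were measured among 19775 genes (0.197%). STAT2 was not analysed here. They were followed in MCF10A cells, an established line of non-tumorigenic human breast epithelial cells, seeded at 6 densities from 50K to 800K cells a dish (50K, 100K, 200K, 400K, 600K and 800K) and kept for 24 h before total RNA was taken. One array (Affymetrix HG-U133 Plus 2) was run per density, 6 in all, so there is no replicate. All dishes held the same medium, with horse serum, EGF, hydrocortisone, cholera toxin, insulin and gentamicin. Density was the only treatment, no interferon is named among the additives, and every array comes from the same cell line.

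Type I and type III interferons are secreted proteins that cells make after sensing foreign nucleic acid. They bind receptors on the cell surface, whose JAK and TYK2 kinases activate STAT proteins. A complex of STATs with IRF9 then enters the nucleus and binds the interferon-stimulated response element, a repeat of GAAA, in the promoters of these genes. Their products block virus entry, degrade or sequester viral RNA, or modify proteins. Epithelial cells also keep some of them on at a low level without infection.

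The deposited values are ratios to the 50K array, so every gene stands at 1 there and no value gives an absolute level. A gene was the mean log2 ratio of its probe sets, and its trend was the slope of that value per doubling of the cells plated, fitted with limma over all genes. Errors after ± are standard errors of this fit over 6 arrays. A gene is said to have risen or fallen where its p-value, adjusted by Benjamini-Hochberg over all 19775 genes, was under 0.05. These p-values measure only the scatter of 6 single arrays around a line. The median ratio of all probe sets lay between 1.01 and 1.04 on the 5 arrays above 50K. On the log2 scale the 3′ to 5′ ratio of the GAPDH control stayed between −0.05 and 0.07 and that of the ACTB control was 0.30 at 800K. The 4 poly-A controls, added before labelling, were lower on every array above 50K than at 50K, down to −0.54. The part of these controls in the results was not tested. In RNA from whole dishes, more RNA per cell and more cells expressing a gene cannot be told apart. Of 7 measured epithelial markers 3 (KRT5, KRT14 and CDH1) rose and 4 did not pass, of which KRT8, EPCAM and ITGB4 had slopes above 0 and KRT18 one of −0.10 ± 0.04. Of 9 measured leukocyte markers 1, CD14, rose (slope 0.74 ± 0.08, ratio 5.66 at 800K) and 8 did not pass. Among them PTPRC, which marks all leukocytes, had a slope of 0.00 ± 0.01. Of 7 fibroblast markers 1 (DCN) and of 5 endothelial markers 2 (PECAM1 and KDR) rose. Ratios cannot show whether a marker is absent, and the part of other cell types was not tested.

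Of the 39 genes, 21 rose with density, 2 fell and 16 did not pass the test. Among all genes 8.93% rose and 12.4% fell. The median slope of the 39 genes was 0.12 log2 units per doubling, against 0.00 over all genes, and slopes ran from −0.28 (IFI35) to 0.77 (IFITM1). At 800K 17 of the 39 genes were at or above 1.5-fold of their 50K value and 2 were at or below the inverse of that; the shares of all genes were 5.97% and 7.75%. The median ratio of the 39 genes was 1.07, 1.17, 1.27, 1.33 and 1.37 on the arrays from 100K to 800K. The genes thus differed, as some climbed over the whole range, others hardly left the 50K value and 2 fell. Some that did not pass moved as well, such as IRF9, with a ratio of 1.92 at 800K. Of the 39 genes, 11 were higher on every array than on the one before it, which held for 2.93% of all genes, and 0 were lower at every step (3.54% of all genes).

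**Figure D1:**
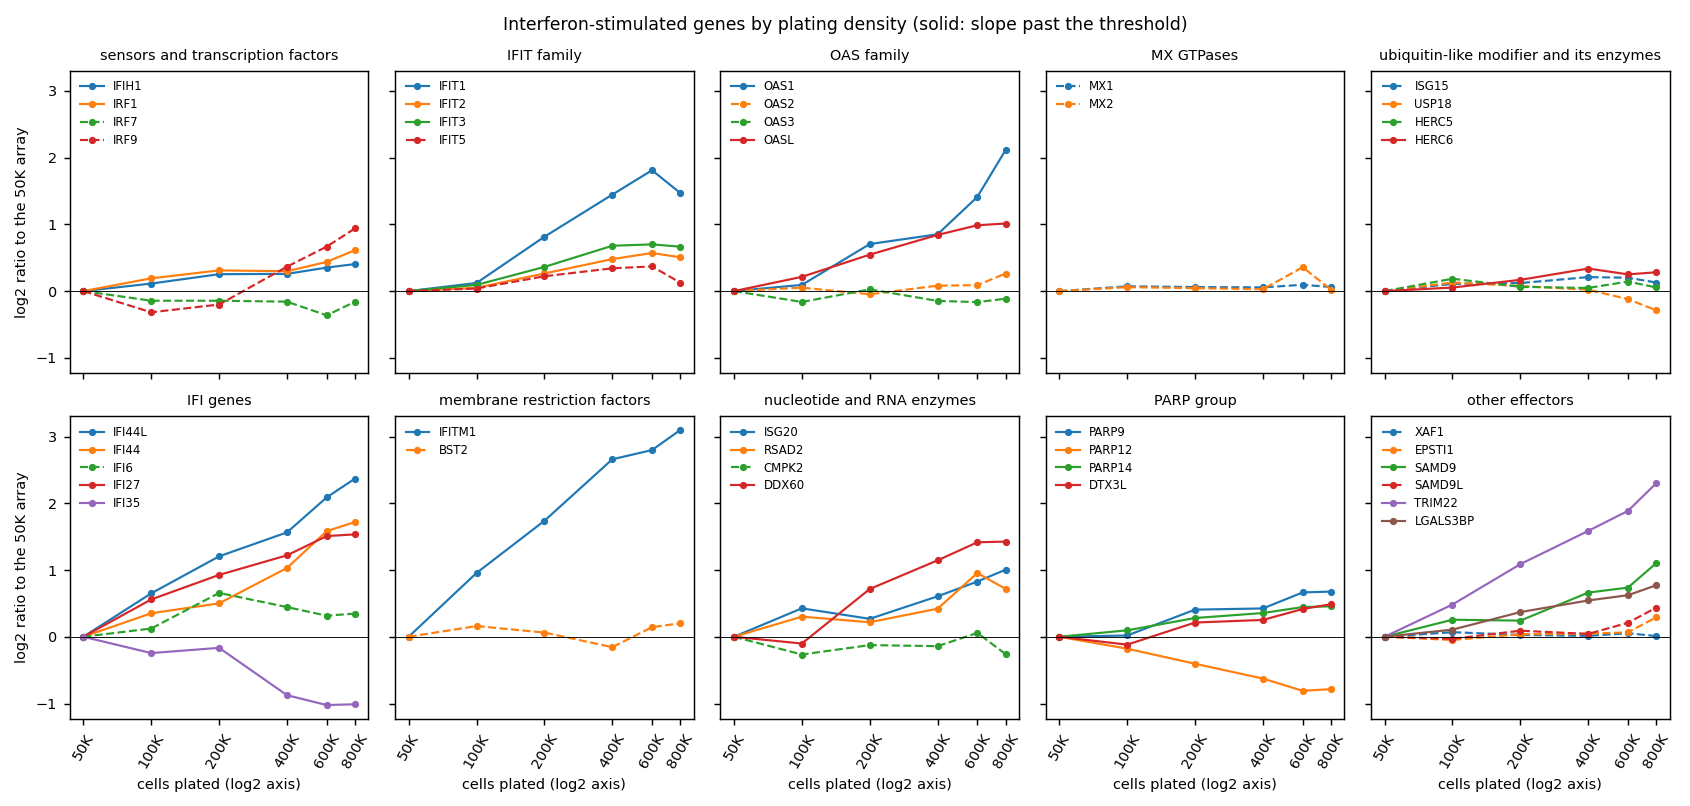
Log2 ratio to the 50K array (vertical axis) against the number of cells plated (horizontal axis, log2 scale) for the 39 measured genes, in panels by role; each point is 1 array, and solid lines mark genes whose slope passed the threshold. IFITM1, IFI44L and TRIM22 climb on every array to 8.56, 5.16 and 4.92 times their 50K value, IFI35 and PARP12 go down, and MX1 and XAF1 stay flat.

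The promoters of these genes were compared, since a shared element is what the group is known for. RefSeq windows from 250 bases before to 50 bases after a start site (GRCh38.p14) were found for 33 of the 40 genes. The core of the response element, taken as GAAA, any 2 bases and GAAA again, on either strand, was in the windows of 24 of the 33 (72.7%). It was in those of 4.38% of the 27305 genes with windows, and in 3.57% of all 35116 windows. No window was found for IFIT2, OASL and TRIM22, which rose, or for IRF7, OAS2, MX2 and USP18, which did not pass. The element was found among genes that rose and among those that did not pass, and the difference in share was not tested. It was found for 15 of 18 genes that rose (83.3%) and for 8 of 12 that did not pass (66.7%), the latter being OAS3, IFIT5, MX1, ISG15, HERC5, IFI6, BST2 and EPSTI1. The longer form, with CT after the core and so always inside a core match, was in 8 of the 18 and 7 of the 12, against 0.322% of all genes. OAS1, IRF1 and HERC6 rose without a match in these windows. The palindrome bound by STAT dimers and known as GAS, TTC and GAA with any 3 bases between, was in 11 of the 33 (33.3%), against 9.38% of all genes. A match describes these letters only and shows no binding.

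To let both cases be read side by side, the promoters of the 4 steepest rising genes that hold the element are given first, and then those of the 2 flattest genes that hold it. Each runs 5′ to 3′ along the gene, from 225 bases before to 25 bases after the start site. Capitals mark the core, which reads as TTTC, 2 bases and TTTC where the match lies on the other strand.
IFITM1 (chr11:313815-314064, plus strand): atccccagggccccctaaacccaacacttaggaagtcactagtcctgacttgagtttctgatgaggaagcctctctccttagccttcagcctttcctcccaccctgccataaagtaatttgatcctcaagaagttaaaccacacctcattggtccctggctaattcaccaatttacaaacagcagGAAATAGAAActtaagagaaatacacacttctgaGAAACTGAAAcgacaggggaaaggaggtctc
IFI44L (chr1:78620223-78620472, plus strand): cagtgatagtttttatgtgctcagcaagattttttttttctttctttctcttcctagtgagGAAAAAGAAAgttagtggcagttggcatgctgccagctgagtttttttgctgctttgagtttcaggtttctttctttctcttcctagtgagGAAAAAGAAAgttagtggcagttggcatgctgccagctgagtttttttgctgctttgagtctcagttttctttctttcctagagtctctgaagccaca
IFIT1 (chr10:89392398-89392647, plus strand): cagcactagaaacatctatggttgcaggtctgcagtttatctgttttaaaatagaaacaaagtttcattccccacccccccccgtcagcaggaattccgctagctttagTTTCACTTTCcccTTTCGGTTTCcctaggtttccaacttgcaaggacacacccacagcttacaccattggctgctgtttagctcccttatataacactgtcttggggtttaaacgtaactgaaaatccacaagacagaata
IFI44 (chr1:78649564-78649813, plus strand): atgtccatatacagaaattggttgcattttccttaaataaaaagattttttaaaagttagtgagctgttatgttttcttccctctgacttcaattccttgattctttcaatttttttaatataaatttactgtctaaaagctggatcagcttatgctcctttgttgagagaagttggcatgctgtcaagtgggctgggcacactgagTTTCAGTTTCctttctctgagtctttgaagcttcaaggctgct
HERC5 (chr4:88456894-88457143, plus strand): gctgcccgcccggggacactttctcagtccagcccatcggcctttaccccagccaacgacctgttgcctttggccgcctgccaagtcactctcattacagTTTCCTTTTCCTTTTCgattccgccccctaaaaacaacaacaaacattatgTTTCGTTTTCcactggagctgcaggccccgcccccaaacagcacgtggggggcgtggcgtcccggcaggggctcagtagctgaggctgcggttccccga
MX1 (chr21:41420333-41420582, plus strand): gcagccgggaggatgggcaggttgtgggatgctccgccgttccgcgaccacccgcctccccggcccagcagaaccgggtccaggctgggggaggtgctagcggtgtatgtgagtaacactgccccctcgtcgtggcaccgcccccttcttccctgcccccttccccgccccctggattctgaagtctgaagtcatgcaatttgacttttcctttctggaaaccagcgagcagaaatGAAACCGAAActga

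The matches of IFITM1 begin 40 and 6 bases before the start site and those of IFI44L 164 and 73 bases before it. IFIT1 has a pair of matches close together, 116 and 103 bases before the start. Where a gene has several windows, only the first by position that holds a match is printed. The printed match of IFI44 begins 18 bases before the start, and its other window holds a match at position −60 from its own start site. HERC5 has 3 matches, of which 2 overlap, and the printed match of MX1 begins 11 bases after the start site. Of the 3 windows of MX1, another holds a match at position −196 from its own start site, and the remaining one holds none. These last 2 genes had slopes of 0.01 ± 0.02 (HERC5) and 0.01 ± 0.01 (MX1). All 6 were chosen for holding the element; the windows of XAF1 and CMPK2, which are as flat, and of OAS1, which rose, hold no match.

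The genes of the membrane factors opened the range. IFITM1, a small membrane protein that keeps viruses from fusing with the cell, had ratios of 1.94, 3.33, 6.32, 6.95 and 8.56 on the arrays from 100K to 800K. Its slope of 0.77 ± 0.04 (adjusted p = 0.000409) was the steepest of the 39. Each array was higher than the one before. IFITM1 was read by 1 probe set whose suffix, _s_at, marks possible hybridisation to related transcripts. Its close relatives IFITM2 and IFITM3, which are no members of the list, rose too, to 3.13 and 2.91 at 800K, each read by 1 _x_at probe set, a suffix that carries a like warning. How far the 3 probe sets read each other's transcripts was not tested. BST2, or tetherin, which holds budding virus particles at the cell surface, had ratios between 0.898 and 1.15 and did not pass.

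Among the IFI genes, 3 rose, 1 fell and 1 did not pass. IFI44L had ratios of 1.57, 2.31, 2.96, 4.26 and 5.16 on the arrays from 100K to 800K, with a slope of 0.57 ± 0.03 (adjusted p = 0.000376). Its neighbour and paralogue IFI44 had ratios of 1.28, 1.42, 2.04, 3.00 and 3.29 on the same arrays and a slope of 0.43 ± 0.04. Both climbed on every array as gene means, though probe set 214453_s_at of IFI44 was at 2.25 at 600K and 2.17 at 800K. IFI27, a small hydrophobic protein of organelle membranes, had ratios of 1.47, 1.90, 2.33, 2.85 and 2.90 from 100K to 800K, and a slope of 0.38 ± 0.02 (adjusted p = 0.000745). Its last step was the smallest. IFI6, a membrane protein that limits cell death and flavivirus replication, peaked early instead, with ratios of 1.09, 1.58, 1.36, 1.25 and 1.27 (slope 0.08 ± 0.05, adjusted p = 0.345).

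IFI35, a cytosolic partner of NMI, went the other way. Its ratios from 100K to 800K were 0.844, 0.891, 0.545, 0.492 and 0.496, with a slope of −0.28 ± 0.04 (adjusted p = 0.0089). The 3 arrays from 400K up lay well below the 3 sparser ones. NMI itself rose, with a slope of 0.16 ± 0.02 and a ratio of 1.45 at 800K. PARP12, a mono-ADP-ribosyltransferase that restricts RNA viruses, was the other gene that fell. Its ratios were 0.884, 0.756, 0.648, 0.571 and 0.581 from 100K to 800K (slope −0.21 ± 0.01, adjusted p = 0.00101), 1.72-fold lower at 800K. IFI35 and PARP12 were each read by a single _s_at probe set, and both stayed past the threshold when any 1 array was left out.

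The rest of the PARP group rose. PARP9 and DTX3L are transcribed from neighbouring genes and their proteins form a ubiquitin ligase. PARP9 had a slope of 0.18 ± 0.02 and was 1.60-fold higher at 800K, and DTX3L had a slope of 0.14 ± 0.03 and was 1.40-fold higher. PARP14, a large ADP-ribosyltransferase with macrodomains, had a slope of 0.12 ± 0.01 and a ratio of 1.37 at 800K. The call of PARP9 was lost without its _s_at probe set (slope 0.13, adjusted p = 0.202). That of DTX3L was lost without the 600K or the 800K array (adjusted p up to 0.0696).

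**Figure D2:**
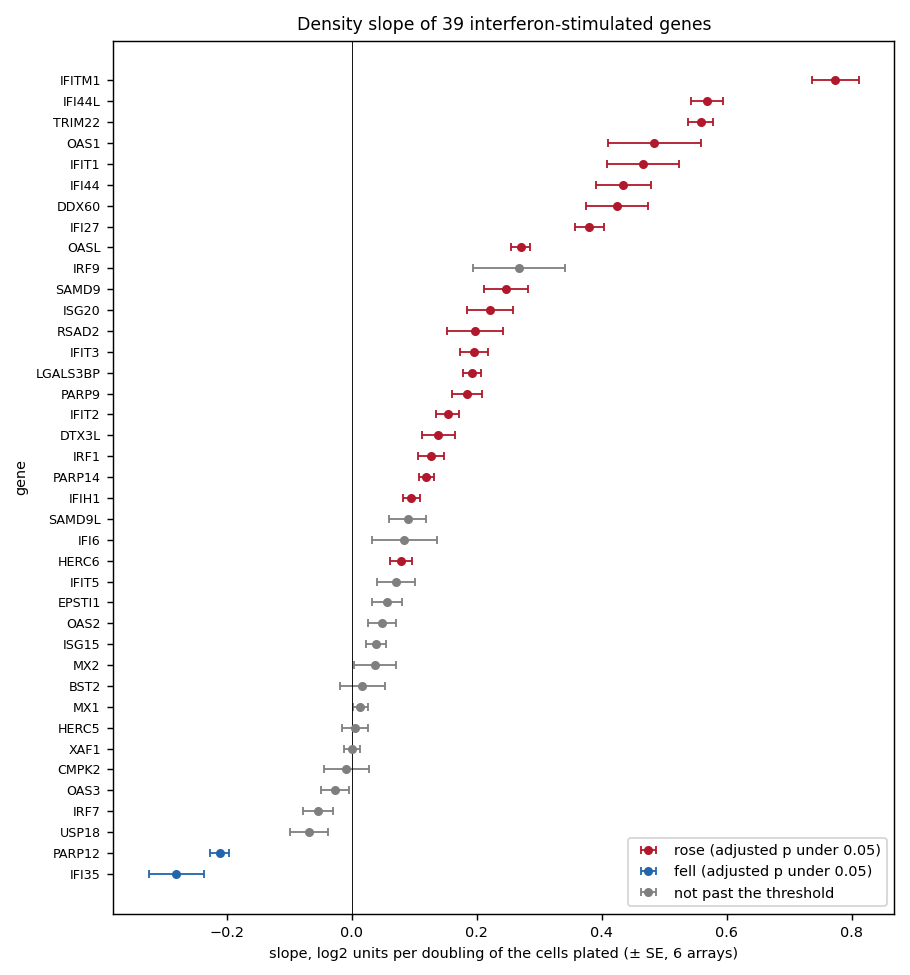
Slope of each of the 39 genes in log2 units per doubling of the cells plated (horizontal axis), with bars of 1 standard error from the fit over 6 arrays; colours show the 21 genes that rose, the 2 that fell and the 16 that did not pass. IFITM1 stands alone at 0.77, and 7 further genes lie between 0.38 and 0.57.

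The IFIT genes, whose proteins bind foreign RNA ends, differed in the size of their slopes. IFIT1 had ratios of 1.09, 1.76, 2.72, 3.51 and 2.77 from 100K to 800K, with a slope of 0.47 ± 0.06 (adjusted p = 0.00488). IFIT3 had a slope of 0.20 ± 0.02 and IFIT2 one of 0.15 ± 0.02, and both rose. IFIT5 had ratios between 1.03 and 1.29 and did not pass (adjusted p = 0.175). As gene means all 4 were highest on the 600K array, but probe sets differed: 226757_at of IFIT2 (1.89 at 600K and 1.97 at 800K) and 204747_at of IFIT3 (1.29 and 1.41) were highest at 800K. Among the 21 genes that rose, 16 were highest at 800K, 4 at 600K (IFIT1, IFIT2, IFIT3 and RSAD2) and 1 at 400K (HERC6). Of all rising genes, 70.2% were highest at 800K and 23.7% at 600K.

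The OAS family makes short oligoadenylates in response to double-stranded RNA, which activate the ribonuclease RNase L; OASL is a relative without that activity. OAS1 had ratios of 1.07, 1.63, 1.80, 2.66 and 4.33 from 100K to 800K and a slope of 0.48 ± 0.07 (adjusted p = 0.00849). As a gene mean it climbed on every array and most of all in its last step. Its probe set 205552_s_at also climbed on every array and passed. The other, 202869_at, was at 0.831 at 100K and did not pass (adjusted p over all probe sets = 0.0544). OASL had ratios of 1.16, 1.46, 1.79, 1.98 and 2.02, with a slope of 0.27 ± 0.02 (adjusted p = 0.000661). OAS3, next to OAS1 in the genome, and OAS2 beside it had slopes of −0.03 ± 0.02 and 0.05 ± 0.02 and did not pass. The OAS2 mean joins unlike probe sets. At 800K 204972_at was at 1.875, 206553_at at 0.891 and 228607_at at 1.03, none of them past the threshold.

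Neighbouring genes of the list did not always move together. In the RefSeq order of protein-coding genes (assembly GRCh38.p14), 10 pairs of the 40 genes are next to each other, and both genes rose in 3 of them: IFI44L with IFI44, IFIT2 with IFIT3, and PARP9 with DTX3L. In 5 pairs 1 gene rose and the other did not pass. SAMD9, a cytosolic antiviral factor that limits growth, had ratios of 1.19, 1.18, 1.58, 1.67 and 2.15 from 100K to 800K (slope 0.25 ± 0.04, adjusted p = 0.00726), while its paralogue SAMD9L had ratios of 0.979, 1.07, 1.03, 1.16 and 1.35 (slope 0.09 ± 0.03, adjusted p = 0.0887). SAMD9L passed with the cell number (adjusted p = 0.0172) or its rank (0.0353) as the predictor. At 800K its probe sets were at 1.61 (226603_at), 1.52 (230036_at) and 1.01 (235643_at). RSAD2, or viperin, which makes a chain-terminating nucleotide, had a slope of 0.20 ± 0.04, and CMPK2, the kinase beside it, one of −0.01 ± 0.04. The call of RSAD2 was lost without 50K, 100K or 800K (adjusted p up to 0.139). The difference between 2 neighbours was not tested.

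Among the other effectors, TRIM22, a ubiquitin ligase of the tripartite motif family, had ratios of 1.40, 2.13, 3.00, 3.70 and 4.92 from 100K to 800K and a slope of 0.56 ± 0.02. Its adjusted p of 0.000226 was the smallest of the 39. DDX60, a helicase that aids RNA sensing, stayed at 0.932 at 100K and then had ratios of 1.64, 2.21, 2.67 and 2.69, with a slope of 0.42 ± 0.05 (adjusted p = 0.00413). The exonuclease gene ISG20 had ratios of 1.34, 1.21, 1.52, 1.78 and 2.01 and a slope of 0.22 ± 0.04 (adjusted p = 0.0106), a call lost without 50K (adjusted p = 0.0748). LGALS3BP, a secreted glycoprotein that binds galectins, rose on every array to 1.71 at 800K. EPSTI1 stayed near its 50K value up to 600K, with ratios of 0.967, 1.03, 1.03, 1.05 and 1.22 (adjusted p = 0.162). TRIM22 and DDX60, like IFITM1, were read by a single _s_at probe set.

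Of ISG15 and the 3 enzymes listed with it, 1 rose and 3 did not pass. ISG15, a ubiquitin-like protein that is joined to other proteins, had ratios between 1.08 and 1.16 above 50K and a slope of 0.04 ± 0.02, with a 95% interval of −0.00 to 0.08. HERC5, the ligase that joins it, had a slope of 0.01 ± 0.02 (interval −0.05 to 0.06). USP18, the protease that removes it and restrains the interferon receptor, had ratios of 1.09, 1.05, 1.01, 0.920 and 0.819 and a slope of −0.07 ± 0.03 (adjusted p = 0.186). HERC6, a relative of HERC5, rose with 0.08 ± 0.02, a call that held in 2 of the 6 fits that leave out an array. In contrast UBE2L6, the conjugating enzyme of the same pathway, rose on every array, to ratios of 1.31, 1.76, 2.39, 3.09 and 3.37 (slope 0.45 ± 0.02, adjusted p = 0.000222). So within 1 pathway the conjugating enzyme rose while its substrate, ligase and protease did not pass the test. Each of these genes was read by 1 probe set, and the difference between them was not tested. UBA7, listed with UBE2L6, was not analysed here.

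MX1 and MX2, the antiviral dynamin-like GTPases, and XAF1, a pro-apoptotic antagonist of XIAP, hardly moved. MX1 had ratios between 1.04 and 1.07 and its slope had an interval of −0.02 to 0.04. MX2 had ratios between 1.02 and 1.28, the highest at 600K. The 3 probe sets of XAF1 gave slopes between −0.00 and 0.01. All probe sets of MX1 and XAF1 stayed within 0.1 log2 units of the median of all probe sets on each array. In ratios, a gene at the array's background and a gene with an unchanged level cannot be told apart.

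Gene means hide a split between probe sets. The 39 genes were read by 62 probe sets, and 8 of these (12.9%) stayed within 0.1 log2 units of the array median on every array, as did 23.5% of all probe sets. IFIH1, the cytosolic RNA sensor MDA5, is an example. Its probe set 219209_at had ratios of 1.16, 1.49, 1.67, 1.80 and 2.26 from 100K to 800K, while 216020_at stayed between 1.02 and 1.06, and the gene mean rose by only 0.10 ± 0.01 per doubling. For IFIT2, probe set 226757_at reached 1.97 and 217502_at 1.02 at 800K. For PARP14, 224701_at reached 1.84 and 232610_at 1.02. Of the 19 genes with several probe sets, 10 had some probe sets past the threshold and others not, and 3 had all past it, with adjustment over all 54613 probe sets, of which 5.94% rose and 7.96% fell. OAS3 was read by 2 probe sets of opposite sign, 218400_at (0.04 ± 0.02) and 232666_at (−0.10 ± 0.04), neither past the threshold.

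**Figure D3:**
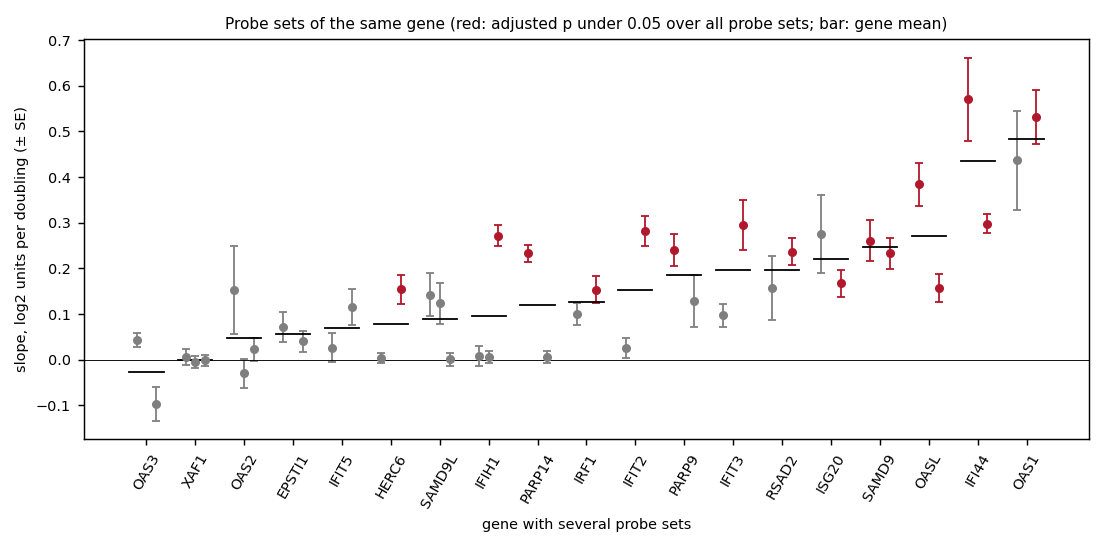
Slope of every probe set (points, with bars of 1 standard error, in log2 units per doubling) for the 19 genes read by several probe sets, ordered by the gene mean, which is the short black bar; red points passed the threshold over all probe sets. IFIH1, IFIT2, PARP14 and HERC6 each have 1 probe set that rises and at least 1 near 0.

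The transcription factors of the response were mixed. IRF9, the DNA-binding subunit of the STAT complex, was below its 50K value at low density and above it at high density, with ratios of 0.803, 0.870, 1.29, 1.59 and 1.92. Its slope of 0.27 ± 0.07 had an adjusted p of 0.0508. IRF9 passed with the cell number (adjusted p = 0.00507) or its rank (0.0244) as the predictor, in the contrast of the 3 lowest with the 3 highest densities (0.0358), and without 50K (slope 0.43, adjusted p = 0.0109) or 200K (0.0389). Over all 12 alternatives its adjusted p reached 0.183, without 800K. IRF1, itself a transcription factor and a tumour suppressor, rose with 0.13 ± 0.02 to 1.53 at 800K, a call lost without the 50K array (adjusted p = 0.0726). IRF7, the amplifier of interferon production, had ratios between 0.778 and 0.905 above 50K and did not pass (slope −0.05 ± 0.02, adjusted p = 0.180).

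The shape of the rise was examined with a quadratic term. In limma 0 of the 39 genes passed after adjustment, as did 0 of all genes (0%); at an unadjusted p under 0.05 there were 6 of the 39 and 2496 of all 19775. The 2 smallest p-values were those of IRF9 (adjusted p = 0.132) and USP18 (0.192). For the 21 genes that rose, a set chosen by this same slope, the median step was 0.12 log2 units from 50K to 100K, 0.27 to 200K and 0.29 to 400K. Per doubling it was 0.28 from 400K to 600K and 0.13 from 600K to 800K. In this chosen set the middle steps were thus the larger ones. Of the 21 genes 19 went up in the first step and 17 in the last, but their choice by slope favours steps up. Of all 39 genes, 29 went up in the first step and 27 in the last. The shares of all 19775 genes that did so were 65.2% and 36.4%.

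**Figure D4:**
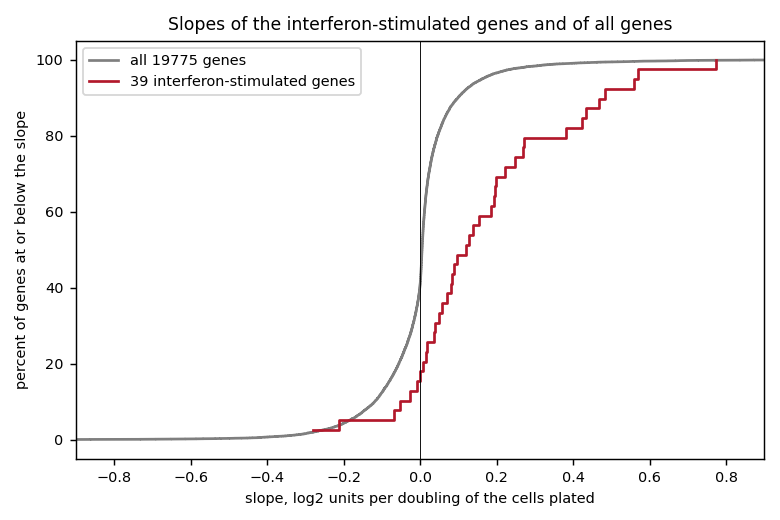
Cumulative share of genes, in percent, at or below each slope (log2 units per doubling) for the 39 interferon-stimulated genes and for all 19775 genes. Except at the lowest slopes, where IFI35 and PARP12 lie, the curve of the 39 genes is to the right, with a median of 0.12 against 0.00.

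The genes around the response were taken from lists by role, drawn up with earlier results of these data known. The counts in these lists stand beside shares over all genes of 8.93% that rose and 12.4% that fell. Of 18 measured interferon genes, 0 passed in either direction, with slopes between −0.00 and 0.06 and a median ratio of 1.03 at 800K; IFNB1 was at 1.02, the epithelial IFNE at 1.07 and the keratinocyte IFNK at 1.04. In ratios, an interferon gene at the array's background and one with an unchanged level cannot be told apart. Whether these transcripts were present is thus not known. Of 6 receptor genes 2 rose, 1 fell and 3 did not pass. IFNGR1 (0.22 ± 0.05) and IFNGR2 (0.20 ± 0.03), the chains of the interferon-gamma receptor, reached 1.94 and 1.74 at 800K. IFNAR1, a chain of the type I receptor, fell, with a slope of −0.15 ± 0.03, a ratio of 0.697 at 800K and slopes below 0 in all 4 of its probe sets. Its partner IFNAR2 had a slope of 0.02 ± 0.03. IFNLR1 and IL10RB, the chains of the type III receptor, had slopes of −0.01 ± 0.02 and 0.16 ± 0.05 and did not pass. The call of IFNAR1 was lost without 50K or 800K (adjusted p up to 0.0543) and that of IFNGR1 without 100K, 600K or 800K (up to 0.0733).

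Of 7 measured kinases and STATs, 2 rose and 5 did not pass. STAT3 (0.08 ± 0.02) and STAT6 (0.12 ± 0.03) rose, but each call held in only 1 of the 6 fits that leave out an array. JAK1 (−0.01 ± 0.02), JAK2 (0.03 ± 0.02), TYK2 (−0.02 ± 0.02), STAT5A (0.04 ± 0.05) and STAT5B (0.04 ± 0.01) did not pass. Among 5 further interferon regulatory factors IRF5 (0.17 ± 0.02) and IRF2 (0.10 ± 0.03) rose and IRF3 (−0.11 ± 0.03), which drives interferon transcription after sensing, fell. IRF4 (0.01 ± 0.01) and IRF8 (−0.01 ± 0.01) did not pass. Only IRF5 held in 5 of the 6 such fits; IRF2 and IRF3 held in 2.

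Of 17 measured genes of nucleic acid sensing 5 rose, 0 fell and 12 did not pass. The DNA sensor IFI16 reached 2.15 at 800K (0.29 ± 0.02), the DNA-sensing adaptor STING1 1.78 (0.23 ± 0.04), the RNA-sensing adaptor MAVS 1.83 (0.22 ± 0.03), the endosomal receptor TLR3 1.67 (0.20 ± 0.03) and the RNA sensor RIGI 1.71 (0.20 ± 0.01). All 5 calls held when any 1 array was left out. Among 11 regulators and ISGylation genes 4 rose and 3 fell. Besides UBE2L6 these were PIAS1 (0.28 ± 0.02), PTPN6 (0.18 ± 0.02) and PTPN2 (0.07 ± 0.02), which rose, and SOCS2 (−0.22 ± 0.02), PIAS4 (−0.11 ± 0.02) and PTPN11 (−0.08 ± 0.02), which fell. PTPN2 held in 1 of the 6 fits that leave out an array, PTPN11 in 2 and PIAS4 in 3.

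Of 38 further interferon-stimulated genes outside the list of 40, 11 rose, 6 fell and 21 did not pass, with a median slope of 0.02. Among all genes 8.93% rose and 12.4% fell. The largest rises were those of IFITM2 (0.41 ± 0.03), IFITM3 (0.38 ± 0.03), the death ligand TNFSF10 (0.35 ± 0.06), the chemokine CXCL11 (0.34 ± 0.07), LY6E (0.31 ± 0.02) and APOL6 (0.30 ± 0.05). The falls were those of the guanylate-binding proteins GBP1 (−0.24 ± 0.02) and GBP3 (−0.23 ± 0.04), of PNPT1 (−0.20 ± 0.04), of the nucleotide hydrolase SAMHD1 (−0.16 ± 0.03), of SP110 (−0.08 ± 0.02) and of PLSCR1 (−0.08 ± 0.02). GBP2 rose (0.16 ± 0.04), a call that held in 2 of the 6 fits that leave out an array, and GBP4 and GBP5 had slopes of −0.01 ± 0.02 and −0.01 ± 0.04. Of the other genes named here, CXCL11 and SAMHD1 held in 3 such fits, PNPT1 in 4, GBP3 in 5, and SP110 and PLSCR1 in 1. The 38 genes were thus closer to all genes in their median than the list of 40 was.

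**Figure D5:**
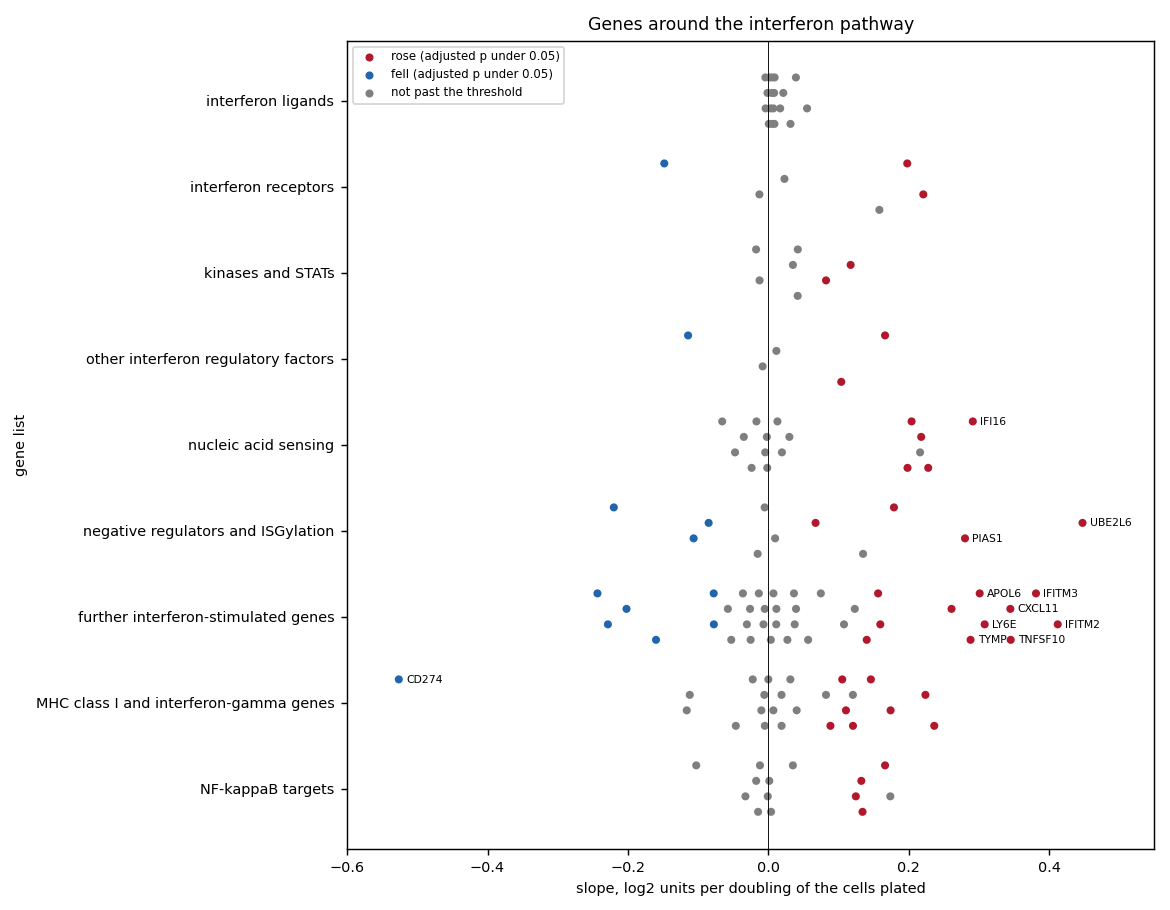
Slope in log2 units per doubling of the cells plated (horizontal axis) for the measured genes of 9 lists around the interferon pathway (rows; points are spread vertically within a row for legibility), with genes of slopes of 0.28 or more in size named. The 18 interferon genes sit near 0, UBE2L6 is the steepest riser at 0.45 and CD274 the steepest faller at −0.53. Ratios do not show whether the interferon genes were expressed.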

How the data were processed

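The 40 genes and the lists around them were chosen with earlier results of these data known. RNA was labelled with biotin and hybridised to 1 array a density, per the labels' protocols. RMA was used, version not stated, per the submitters' processing notes, and the authors deposited linear ratios: in the 50K column all 54675 entries equal 1 within 1e-06. The sources used here do not say how the division was made and give no intensities, so a probe's distance from background is not known.

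The log2 of each ratio was taken, with no filter on low values. Leaving out 62 controls, 41091 probe sets carried a single symbol in the platform's annotation and 1801 carried several and were not used; symbols were updated through gene identifiers to RefSeq for 41037. A gene was the mean of its probe sets. Slopes on log2 of the cells plated were estimated by lmFit and eBayes of limma 3.58.1 under R 4.3.3 (4 residual degrees of freedom, two-sided) and checked on simulated data. Genes detailed array by array were, by a rule, the 12 with the largest slopes past the threshold and those that fell. The rule also took the 4 with the largest change at 800K that did not pass. Picked after their values were seen were the genes of split probe sets, IFIH1, IFIT2, PARP14, OAS2 and OAS3. So were the probe sets given for other genes, the ISG15 enzymes, NMI, GBP2, GBP4, GBP5, TNFAIP3, XAF1 and the marker genes. Of the other lists, receptors, kinases, STATs and IRFs are all named, and up to 6 called genes each way elsewhere. Genes of the lists without a single-symbol probe set were not analysed here.

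Alternatives were leaving out _x_at and _s_at probe sets, centring arrays on their medians, the cell number or its rank as the predictor, a contrast of the 3 sparser with the 3 denser dishes, robust variances, each probe set alone and leaving out each array.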

Additional observations from a re-analysis of the deposited data

How the results depend on the processing

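No paired analysis was possible because each density has 1 array. Of the 40 genes, 21 rose as reported; the count was 17 of 31 without _x_at and _s_at probe sets, 21 with centred arrays, with robust variances and with each probe set alone, 22 with the cell number and 23 with its rank, 11 for the 3 lowest against the 3 highest densities, and 18 to 22 when 1 array was left out. The 2 that fell became 0 without _x_at and _s_at probe sets, since IFI35 and PARP12 have no others; otherwise 2 or 3 fell. Among the genes that rose, IFITM1, TRIM22 and DDX60 have no other probe sets either, and PARP9 lost its call without its _s_at probe set (adjusted p = 0.202). The median slope ranged from 0.11 to 0.13. Of the 23 called genes, 18 kept their call with each array left out (16 rising, 2 falling). The contrast of 3 against 3 lost IFIH1, IRF1, OAS1, HERC6, IFI44L, IFI27, ISG20, RSAD2, PARP9, PARP14 and DTX3L (adjusted p up to 0.161) and gained IRF9. HERC6 lost its call without 50K, 100K, 600K or 800K, RSAD2 without 50K, 100K or 800K (adjusted p up to 0.139), DTX3L without 600K or 800K, and IRF1 and ISG20 without 50K (up to 0.0748). No slope of a called gene, or of IRF9, SAMD9L, IFI6 or EPSTI1, turned sign in 319 comparisons with the alternatives. Curvature gave 0 in all 9 fits.

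Over all genes, 1765 rose and 2455 fell. Without _x_at and _s_at probe sets the counts were 1157 and 1507, for the 3 lowest against the 3 highest densities 908 and 1351, and with 1 array left out 1026 to 1627 and 1362 to 2282. In the 9 lists around the pathway 38 rose and 12 fell. The same settings gave 20 and 8, 21 and 3, and 24 to 36 and 5 to 11; without 100K 24 rose, without 600K 25 rose and 5 fell, without 800K 5 fell and without 50K 6 fell. Of these 50 calls 25 held with each array left out. The share of promoters with the element was 72.7% for the core and 45.5% for the form with CT after it. The cause of these differences was not tested, apart from the missing probe sets of IFI35, PARP12, IFITM1, TRIM22 and DDX60 and the left-out probe set of PARP9. The number of arrays limits the precision.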

Other observations

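Of 24 measured genes of antigen presentation and of the response to interferon-gamma 8 rose, 1 fell and 15 did not pass, with a median slope of 0.03. The shares over all genes were 8.93% rising and 12.4% falling. The steepest rises were those of WARS1, a tryptophanyl-tRNA synthetase (0.24 ± 0.06), the proteasome activator gene PSME1 (0.22 ± 0.02), the class I genes HLA-E (0.17 ± 0.04) and HLA-B (0.15 ± 0.02), the tryptophan-degrading enzyme gene IDO1 (0.12 ± 0.02) and the peptide-trimming ERAP2 (0.11 ± 0.02). Probe sets of class I genes may read more than 1 of these near-identical genes. CD274, which encodes the checkpoint ligand PD-L1, fell most, with ratios from 100K to 800K of 0.614, 0.338, 0.352, 0.207 and 0.242 (slope −0.53 ± 0.07, adjusted p = 0.00487), 4.14-fold lower at 800K. Its call held with each array left out, while that of WARS1 held in 1 of the 6 such fits, that of ERAP2 in 2, that of IDO1 in 3 and that of HLA-E in 4.

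Of 14 measured targets of NF-kappaB, the other main factor of inflammatory transcription, 4 rose, 0 fell and 10 did not pass, with a median slope of 0.00. The shares over all genes were 8.93% rising and 12.4% falling. NFKBIA, its inhibitor, had a slope of 0.12 ± 0.02, the chemokines CXCL8 and CXCL1 had slopes of 0.17 ± 0.03 and 0.13 ± 0.03, and the adhesion molecule ICAM1 one of 0.13 ± 0.03. NFKBIA alone of these 4 kept its call with each array left out, while CXCL8 kept it in 3 of the 6 such fits, ICAM1 in 1 and CXCL1 in 0. A slope misses a dip inside the range. The quadratic term had an unadjusted p under 0.05 in 7 of the 14 genes and in 2496 of all 19775, and 0 passed after adjustment. TNFAIP3, with the smallest of these p-values in the list (adjusted p = 0.104), had ratios of 0.568, 0.357, 0.516, 0.661 and 1.03 from 100K to 800K.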
